A study of Mus musculus with 12 samples.

Results

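The 44 genes described here encode the machinery of mitosis and of the G2/M transition, and were measured by bulk RNA-seq in haematopoietic stem cells (HSCs) sorted from mouse bone marrow. They were chosen by gene symbol, as mitotic kinases, cyclins, kinesins, kinetochore proteins and condensins, and all 44 of the 44 were found among the 24946 genes of the deposited table. All 44 also passed the filter on low values (at least 100 units in at least 3 libraries), as did 10816 genes in all. The mice were C57BL/6, and 3 libraries were made in each of 4 groups: *Bst2* knockout (KO) mice given 100 µg of recombinant mouse interferon-γ (IFN-γ) for 24 h, naive KO mice, wild-type (WT) mice given the same IFN-γ treatment, and naive WT mice. *Bst2* encodes tetherin, a membrane protein that interferons induce, and the labels give no details of the knockout allele. HSCs were gated as lineage-negative, c-Kit-positive and CD150-positive cells without CD48 or CD34, with 5000 to 11000 cells per mouse. No label links a library to a mouse, so p-values measure only the spread between libraries, which may be technical.

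Mitosis is driven by Cdk1 bound to cyclins A and B, which is switched on by Cdc25 phosphatases. Aurora and Polo-like kinases then build the spindle, the checkpoint proteins hold the anaphase-promoting complex (APC/C) until every kinetochore is attached, and condensins compact the chromosomes. Most of these genes are transcribed in a wave late in the cell cycle. They are repressed in resting cells by the DREAM complex and activated by B-Myb with MuvB, by FoxM1 and by NF-Y. Short promoter elements carry much of this control: the cell cycle genes homology region (CHR), bound by MuvB complexes, and the CCAAT box, bound by NF-Y. Adult HSCs are known to be mostly quiescent, and interferons are known to influence how often they divide.

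The promoters show what most of the genes share at the sequence level. RefSeq windows (GRCm38.p6, 250 bases before to 50 bases after the start) matched 37 of the 44 genes by symbol. Windows were searched on both strands for the CHR letters TTTGAA and TTTAAA and for CCAAT. The *Mki67* and *Top2a* windows are printed because these genes had the highest mean levels among those with a match, *Cdk1* and *Ccnb1* because they moved the other way between library series (chosen after their values were seen), and *Nuf2* because its window held neither element. Capitals mark matches on either strand.

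Mki67, chr7:135716330-135716629 (- strand): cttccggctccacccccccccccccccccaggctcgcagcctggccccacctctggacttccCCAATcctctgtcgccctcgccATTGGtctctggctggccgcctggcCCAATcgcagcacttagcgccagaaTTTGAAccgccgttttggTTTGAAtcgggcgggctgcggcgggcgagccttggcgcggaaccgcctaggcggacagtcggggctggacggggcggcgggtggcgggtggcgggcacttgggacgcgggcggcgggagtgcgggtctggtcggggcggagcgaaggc

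Top2a, chr11:99024140-99024439 (- strand): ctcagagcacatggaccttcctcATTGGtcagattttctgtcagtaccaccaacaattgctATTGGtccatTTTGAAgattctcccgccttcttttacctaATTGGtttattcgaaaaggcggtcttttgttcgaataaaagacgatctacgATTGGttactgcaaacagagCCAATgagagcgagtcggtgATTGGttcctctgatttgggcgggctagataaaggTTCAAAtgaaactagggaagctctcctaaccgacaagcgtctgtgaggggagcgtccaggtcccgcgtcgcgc

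Cdk1, chr10:69352863-69353162 (- strand): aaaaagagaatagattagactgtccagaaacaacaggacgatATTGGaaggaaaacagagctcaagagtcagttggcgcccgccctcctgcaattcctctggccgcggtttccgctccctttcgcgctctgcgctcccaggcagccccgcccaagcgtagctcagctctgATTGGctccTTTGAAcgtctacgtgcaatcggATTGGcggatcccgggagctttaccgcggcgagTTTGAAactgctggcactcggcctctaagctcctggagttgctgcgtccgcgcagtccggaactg

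Ccnb1, chr13:100786437-100786736 (- strand): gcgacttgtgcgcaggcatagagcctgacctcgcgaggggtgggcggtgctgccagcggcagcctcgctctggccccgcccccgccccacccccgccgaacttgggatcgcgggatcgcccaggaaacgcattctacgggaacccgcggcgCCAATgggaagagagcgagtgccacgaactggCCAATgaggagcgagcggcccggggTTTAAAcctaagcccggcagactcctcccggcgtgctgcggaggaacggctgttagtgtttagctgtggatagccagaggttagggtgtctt

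Nuf2, chr1:169531415-169531714 (- strand): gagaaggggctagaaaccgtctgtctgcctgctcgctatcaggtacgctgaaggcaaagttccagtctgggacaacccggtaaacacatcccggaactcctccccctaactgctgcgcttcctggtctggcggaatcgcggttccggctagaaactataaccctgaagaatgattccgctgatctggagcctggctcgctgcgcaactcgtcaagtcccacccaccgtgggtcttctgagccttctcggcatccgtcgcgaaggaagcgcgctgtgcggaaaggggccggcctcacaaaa

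CHR letters were found in 32 of the 37 genes (86.5%), against 22% of the 8603 tested genes with a window and 30.6% of all 27025 genes with one. CCAAT was found in 28 of the 37 (75.7%), against 43.5% of tested genes and 41.1% of all. Both elements were found for 26 of the 37 genes (70.3%), against 10.4% of tested genes and 13.4% of all. Close to the start, from 50 bases before to 50 bases after it, CHR letters were present in 26 of the 37 genes (70.3%) and in 5.92% of tested genes. A letter match is a description and not a shown binding site. *Mad2l1*, *Nuf2* and *Nusap1* had neither element in these windows, and *Cdc25b* and *Bub1* had CCAAT alone. For genes with more than 1 listed start, each element was scored separately, on whichever window held more matches to it. In such genes CHR letters and CCAAT that were counted as both present may lie in different windows.

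The values are the authors' normalized counts, called units here. Their totals lay between 13.8 and 17.7 M units per library. Depth, estimated roughly from the smallest steps of the values, was 0.495 M reads in WT naive 2 and 8.76 to 52.1 M reads in the other 11 libraries. If a step is 1 read, 3 reads correspond to 102 units in that shallow library and to 1.02 to 5.22 units in the rest. *Bst2* lay at 0 to 24.8 units in KO libraries and 152 to 1514 units in WT libraries. The titles carry codes from 3 series, R-09 (4 libraries, 1 per group), R-07 (2 libraries, both KO) and FL-06 (6 libraries, in all 4 groups), whose meaning the labels leave unexplained. The R-09 libraries stood apart: 68% of the 10816 genes tested differed between R-09 and FL-06. Each treatment and genotype result is therefore also given within code series. The 12 HSC markers listed for this work summed to 33784 to 42575 units in R-09, 31019 to 35088 units in R-07 and 30158 to 35350 units in FL-06, and none of them was at 0 throughout a series. WT IFN-γ 1 and 2 were the most alike pair (median absolute log2 difference over tested genes 0.137, against 0.266 to 0.594 in the other 21 pairs of the same series).

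In none of the treatment or genotype comparisons did any of the 44 genes pass the test, whereas 35 of 44 (79.5%) differed between the R-09 and FL-06 libraries, where 68% of all tested genes did. Of the 35, 16 were higher in R-09 (35.6% of all tested genes were) and 19 were lower (32.3% of all tested genes were). The median log2 difference of the 44 was -0.05, beside 0.23 over all tested genes. The summed level of the 44 genes was 0.383 to 0.492% of all units in R-09, 0.504 to 0.514% in R-07 and 0.581 to 0.624% in FL-06. *Mki67* alone made up 0.603 to 1.04% of that sum in R-09, against 21.3 to 22.9% in R-07 and 21.4 to 23% in FL-06. Without *Mki67* the sum was 54786 to 71105 units in R-09, 62492 to 65052 units in R-07 and 78747 to 84061 units in FL-06. The R-07 sums then lay within the R-09 range. Library totals were also lower in R-09 (13.8 to 14.6 M units) than in FL-06 (16.8 to 17.7 M units). The separation of the summed shares thus rests in part on this 1 gene. In bulk samples, fewer cells of a type and less RNA per cell cannot be told apart.

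**Figure D1:**
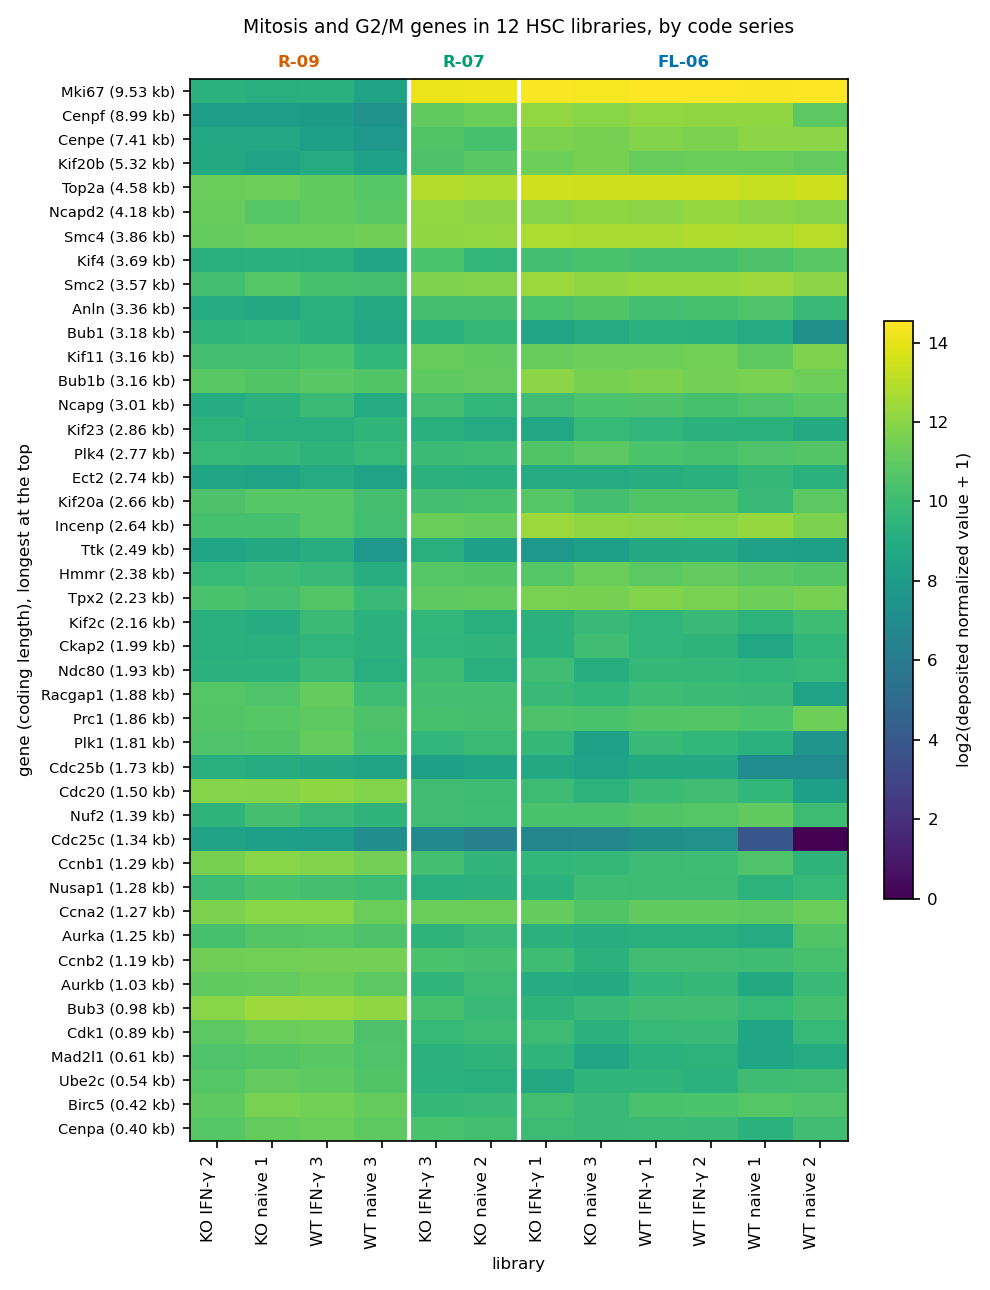
Heat map of log2(deposited normalized value + 1) for the 44 genes (down the page, longest coding length at the top) in the 12 libraries (across, grouped by code series). Genes of the upper part are darker (lower) in the 4 R-09 libraries, from *Mki67* at 332 to 630.3 units there against 21485 to 24051 units in FL-06, and those of the lower part are lighter (higher), such as *Bub3* at 4006 to 5403 units in R-09 against 704 to 1221 units in FL-06.

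The order of the genes by level per kb of coding sequence also differed between series. In R-09 *Birc5* (6098 units per kb), *Cenpa* (5262) and *Bub3* (4941) led, and *Mki67* was number 42 of the 44 at 55.6 units per kb. In FL-06 *Birc5* (3141 units per kb) led, followed by *Mki67* (2417), *Top2a* (2404) and *Cenpa* (2289). *Cdc25c*, a phosphatase that activates Cdk1, was lowest in FL-06 at 66.8 units per kb. These orders rest on coding length and would change with transcript length, which raises short coding sequences less. The annotated transcript is 0.947 kb for *Birc5* (coding 0.42 kb) and 1.466 kb for *Cenpa* (0.402 kb). For *Mki67* it is 10.061 kb (coding 9.531 kb). Among all genes of a library by level, *Mki67* ranked 5298 to 7301 in R-09, against 64 to 74 in R-07 and 51 to 62 in FL-06. *Bub3* ranked 408 to 605 in R-09, against 3013 to 4161 in R-07 and 3253 to 5032 in FL-06. The values of R-09 and FL-06 overlapped for 15 of the 44 genes (34.1%), beside 40% of all tested genes. R-09 lay above every FL-06 library for 12 genes (31.8% of all tested genes did) and below every one for 17 (28.2%). R-07 lay above every FL-06 library for 3 genes (*Bub1*, *Cenpa* and *Racgap1*; 10.4% of tested genes) and below every one for 12 (10.4% of tested genes).

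Of the 6 genes of mitotic entry, 5 were higher in R-09 and *Cdc25b* did not pass the test. R-09 values are listed for KO IFN-γ, KO naive, WT IFN-γ and WT naive in that order, and R-07 values for KO IFN-γ and KO naive. *Cdk1*, the kinase that starts mitosis, had 1899.6, 2505, 2586 and 1427 units in R-09, 866 and 1019 units in R-07, and 387 to 1011 units (median 856) in FL-06 (2.69-fold higher, log2 fold change 1.43, SE 0.23, limma adjusted p = 0.0001913). *Ccnb1*, the main mitotic cyclin, had 3071, 3955, 3594 and 2893 units in R-09, 1188 and 745 units in R-07, and 710.03 to 1493 units (median 921) in FL-06 (3.59-fold higher, log2 fold change 1.84, SE 0.22, limma adjusted p = 2.07e-05). Every R-09 library lay above every FL-06 library for both, and the R-07 values overlapped those of FL-06. *Ccnb2*, another B-type cyclin, had 2672, 2851, 2951 and 2891 units in R-09, 1353 and 1230.5 units in R-07, and 648 to 1299 units (median 1075) in FL-06 (2.88-fold higher, log2 fold change 1.53, SE 0.15, limma adjusted p = 3.164e-06). *Ccna2*, the cyclin of S phase and early mitosis, had 3254, 4079, 4033 and 2519 units in R-09, 2355 and 2532 units in R-07, and 1581 to 2479 units (median 2042) in FL-06 (1.68-fold higher, log2 fold change 0.75, SE 0.16, limma adjusted p = 0.001807). The R-07 values again overlapped those of FL-06. *Cdc25c*, a Cdk1-activating phosphatase, had 330.3, 294, 281 and 138 units in R-09, 123 and 81.5 units in R-07, and 0 to 166 units (median 104) in FL-06 (5.24-fold higher, log2 fold change 2.39, SE 0.91, limma adjusted p = 0.03705). This lowest member of the set overlapped between the series, its FL-06 value of 0 is in the shallow library WT naive 2, and the call was lost without a filter on low values (adjusted p = 0.05576). It was also lost in 8 of 12 fits that each left out 1 library, all but those without WT naive 1 or 2 or WT IFN-γ 2 or 3, and the log2 fold change was 1.28 without WT naive 3. *Cdc25b*, its relative that acts at the start of mitosis, had 588, 516, 441 and 354 units in R-09, 312 and 362 units in R-07, and 130.4 to 461 units (median 394) in FL-06 (log2 fold change 0.60, 95% interval -0.04 to 1.24, limma adjusted p = 0.08553).

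Among the mitotic kinases and the chromosomal passenger complex, 4 of 6 genes were higher in R-09 and 2 were lower. *Plk1*, the Polo-like kinase that acts at centrosomes and kinetochores, had 1517, 1564, 2229.5 and 1314 units in R-09, 749.8 and 950.4 units in R-07, and 192 to 901 units (median 713) in FL-06 (3.07-fold higher, log2 fold change 1.62, SE 0.33, limma adjusted p = 0.001116). *Aurkb*, the kinase of the passenger complex, had 2034, 2103, 2504 and 1872 units in R-09, 744 and 1003 units in R-07, and 454 to 922 units (median 639) in FL-06 (3.47-fold higher, log2 fold change 1.80, SE 0.21, limma adjusted p = 1.519e-05). *Birc5*, survivin, which places that complex on centromeres, had 2005, 3144, 2839 and 2256 units in R-09, 837 and 895 units in R-07, and 917 to 1689 units (median 1357) in FL-06 (2.02-fold higher, log2 fold change 1.01, SE 0.17, limma adjusted p = 0.0002902). All R-09 libraries exceeded all FL-06 libraries for these genes. *Aurka*, the spindle-pole Aurora kinase, had 1289 to 1657 units in R-09 against 489 to 1556 units in FL-06 (2.28-fold higher, adjusted p = 0.003717). Its ranges overlapped through WT naive 2, which had 1556 units. *Incenp*, the scaffold of the passenger complex, had 1262, 1268, 1652 and 1148 units in R-09, 2466 and 2205 units in R-07, and 3349 to 5229 units (median 4362) in FL-06 (3.3-fold lower, log2 fold change -1.72, SE 0.14, limma adjusted p = 5.699e-07). *Plk4*, the kinase of centriole duplication, had 715 to 853 units in R-09 against 1288 to 1874 units in FL-06 (1.93-fold lower, adjusted p = 3.185e-05). Within 1 complex, then, *Aurkb* and *Birc5* were higher and *Incenp* was lower in R-09, with R-07 values of *Incenp* between the other series.

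Of the 7 genes of the spindle checkpoint and the APC/C, 4 were higher in R-09 and 1 was lower. *Bub3*, which brings checkpoint kinases to kinetochores, had 4006, 5403, 5336 and 4584 units in R-09, 1296 and 915 units in R-07, and 704 to 1221 units (median 976) in FL-06 (5.18-fold higher, log2 fold change 2.37, SE 0.16, limma adjusted p = 1.818e-07). *Cdc20*, the APC/C activator that the checkpoint holds back, had 3809, 3730.1, 4319.6 and 3687 units in R-09, 1096 and 1005 units in R-07, and 291 to 1084 units (median 895) in FL-06 (5.14-fold higher, log2 fold change 2.36, SE 0.26, limma adjusted p = 9.825e-06). R-09 stood well above both other series for these genes, which had among the largest differences of the set. *Mad2l1*, the checkpoint protein that binds Cdc20, had 1468 to 1789 units in R-09 against 376 to 737 units in FL-06 (2.99-fold higher, adjusted p = 2.365e-05). *Ube2c*, the ubiquitin-conjugating enzyme of the APC/C, had 1525 to 2146 units in R-09 against 434 to 1072 units in FL-06 (2.53-fold higher, adjusted p = 0.00024). *Bub1b*, the pseudokinase BubR1 of the mitotic checkpoint complex, had 1828, 1561, 1798 and 1583 units in R-09, 1955 and 2120.2 units in R-07, and 2638 to 4234 units (median 3090.3) in FL-06 (1.92-fold lower, log2 fold change -0.94, SE 0.12, limma adjusted p = 3.133e-05). The whole R-09 range of *Bub1b* lay below the whole FL-06 range. *Bub1*, a checkpoint kinase, had 428 to 786 units in R-09 and 159 to 623 units in FL-06 (log2 fold change 0.49, 95% interval -0.19 to 1.17). *Ttk*, the kinase Mps1, had 219 to 537 units in R-09 and 217 to 477 units in FL-06 (log2 fold change 0.23, 95% interval -0.45 to 0.91). These 2 kinases did not pass the test.

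At the kinetochore, 1 of 5 genes was higher in R-09 and 3 were lower. *Cenpf*, a large coiled-coil protein of the outer kinetochore, had 277, 282, 243 and 168 units in R-09, 2029 and 2508 units in R-07, and 1929.7 to 4675 units (median 4521) in FL-06 (16.9-fold lower, log2 fold change -4.08, SE 0.21, limma adjusted p = 1.548e-08). *Cenpe*, a kinesin that carries chromosomes to the spindle equator, had 415, 416, 293 and 215 units in R-09, 1573 and 1278 units in R-07, and 3040.4 to 4199 units (median 3485) in FL-06 (11.3-fold lower, log2 fold change -3.49, SE 0.20, limma adjusted p = 4.132e-08). Both lay in R-09 far below every library of the other series, and the R-07 values of *Cenpe* were also below those of FL-06. *Cenpa*, the histone H3 variant that marks centromeres, had 1751, 2231, 2509 and 1969 units in R-09, 1329.7 and 1119 units in R-07, and 631 to 1103 units (median 948) in FL-06 (2.32-fold higher, log2 fold change 1.21, SE 0.17, limma adjusted p = 8.417e-05). *Nuf2*, a subunit of the Ndc80 complex that grips microtubules, had 712, 1216, 930.3 and 703 units in R-09, 1082 and 1044 units in R-07, and 1019 to 2020.5 units (median 1438) in FL-06 (1.67-fold lower, log2 fold change -0.74, SE 0.21, limma adjusted p = 0.008973). *Nuf2* overlapped between the series through KO naive of R-09, and its call was lost without WT naive 3. *Ndc80*, its partner, had 551 to 953 units in R-09 and 543 to 1097 units in FL-06 and did not pass the test (log2 fold change -0.22, 95% interval -0.66 to 0.21).

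Of the 11 motors and spindle-associated proteins, 1 was higher in R-09, 5 were lower and the other 5 did not pass the test. *Kif20b*, a kinesin of late mitosis, had 462, 343, 499 and 325 units in R-09, 1446 and 1847 units in R-07, and 2099 to 3069 units (median 2501) in FL-06 (6.33-fold lower, log2 fold change -2.66, SE 0.16, limma adjusted p = 5.799e-08). *Tpx2*, the spindle assembly factor that activates Aurora A, had 1328, 1201, 1629.8 and 937 units in R-09, 1987 and 2036 units in R-07, and 2585 to 3548 units (median 3105) in FL-06 (2.47-fold lower, log2 fold change -1.31, SE 0.12, limma adjusted p = 1.404e-06). *Kif11*, the kinesin that pushes spindle poles apart, had 1183, 1142, 1368 and 788 units in R-09, 2270.03 and 2038 units in R-07, and 1967 to 3352 units (median 2633) in FL-06 (2.35-fold lower, log2 fold change -1.23, SE 0.17, limma adjusted p = 6.427e-05). All 4 R-09 libraries were below all FL-06 libraries for these genes. *Kif4*, a chromosome-bound kinesin, had 376 to 593 units in R-09 against 1170.3 to 1785 units in FL-06 (2.6-fold lower, adjusted p = 0.0001798). *Hmmr*, a spindle-pole microtubule-binding protein, had 542 to 1055 units in R-09 against 1623 to 2381 units in FL-06 (2.38-fold lower, adjusted p = 1.761e-05). *Nusap1*, a microtubule-bundling protein, had 1003 to 1323 units in R-09 against 627 to 1039 units in FL-06 (1.35-fold higher, adjusted p = 0.02751). *Nusap1* was the sole member of this group called higher, and its call was lost in 6 of 12 fits that each left out 1 library (KO IFN-γ 1 or 2, KO naive 1, WT IFN-γ 1 or 2, or WT naive 3). The others were *Kif20a* and *Kif23*, kinesins of the central spindle and cytokinesis, *Kif2c*, *Prc1*, and *Ckap2*, a microtubule-associated protein. They had log2 differences of -0.24 (*Kif2c*, a microtubule depolymerase) to 0.11 (*Prc1*, which bundles the central spindle), with 95% intervals that together ran from -0.70 to 0.58.

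The cytokinesis genes were split, with 1 of 3 higher in R-09 and 2 lower. *Racgap1*, a subunit of centralspindlin, had 1664, 1512, 2211 and 1039 units in R-09, 1190.3 and 1188 units in R-07, and 336 to 1043 units (median 928) in FL-06 (1.95-fold higher, log2 fold change 0.96, SE 0.24, limma adjusted p = 0.003926). *Anln*, an actin-binding scaffold of the contractile ring, had 504, 435, 632 and 468 units in R-09, 1213 and 1211 units in R-07, and 924 to 1534 units (median 1355) in FL-06 (2.58-fold lower, log2 fold change -1.37, SE 0.18, limma adjusted p = 4.935e-05). *Ect2*, the exchange factor that activates RhoA, had 337 to 497 units in R-09 against 488 to 816 units in FL-06 (1.46-fold lower, adjusted p = 0.04157). Of these genes *Anln* alone had no overlap between R-09 and FL-06, and the call of *Ect2* was lost in 10 of 12 fits that each left out 1 library.

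All 6 genes of chromosome structure were lower in R-09. *Mki67*, which encodes the proliferation marker Ki-67 that coats mitotic chromosomes, had 630.3, 557, 599 and 332 units in R-09, 17574 and 18518 units in R-07, and 21485 to 24051 units (median 23093) in FL-06 (45.4-fold lower, log2 fold change -5.50, SE 0.14, limma adjusted p = 9.753e-11). *Top2a*, the topoisomerase that untangles sister chromatids, had 2376, 2551, 2048 and 1778 units in R-09, 7516 and 6963 units in R-07, and 10080.4 to 11492 units (median 11129.9) in FL-06 (5.19-fold lower, log2 fold change -2.38, SE 0.09, limma adjusted p = 1.378e-09). No library of R-07 or FL-06 came near the R-09 values of *Mki67*, the largest difference of the set. *Smc4*, a core ATPase of condensin, had 2257, 2392, 2523 and 2733 units in R-09, 4489 and 4731 units in R-07, and 6598 to 8198 units (median 6992) in FL-06 (2.84-fold lower, log2 fold change -1.50, SE 0.08, limma adjusted p = 2.966e-08). *Smc2*, its partner ATPase, had 1175, 1665, 1263 and 1214 units in R-09, 3467 and 3606 units in R-07, and 4210.3 to 5439.9 units (median 5047) in FL-06 (3.76-fold lower, log2 fold change -1.91, SE 0.12, limma adjusted p = 9.075e-08). R-09 was lowest, R-07 intermediate and FL-06 highest for both subunits, without overlap. *Ncapd2*, a condensin I subunit, had 1659.7 to 2321 units in R-09 against 3774 to 4837 units in FL-06 (2.16-fold lower, adjusted p = 3.705e-06). *Ncapg*, another condensin I subunit, had 492 to 960.2 units in R-09 against 1105 to 1794 units in FL-06 (2.17-fold lower, adjusted p = 0.0006346). The direction was thus shared by *Mki67*, *Top2a* and all 4 condensin genes.

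**Figure D2:**
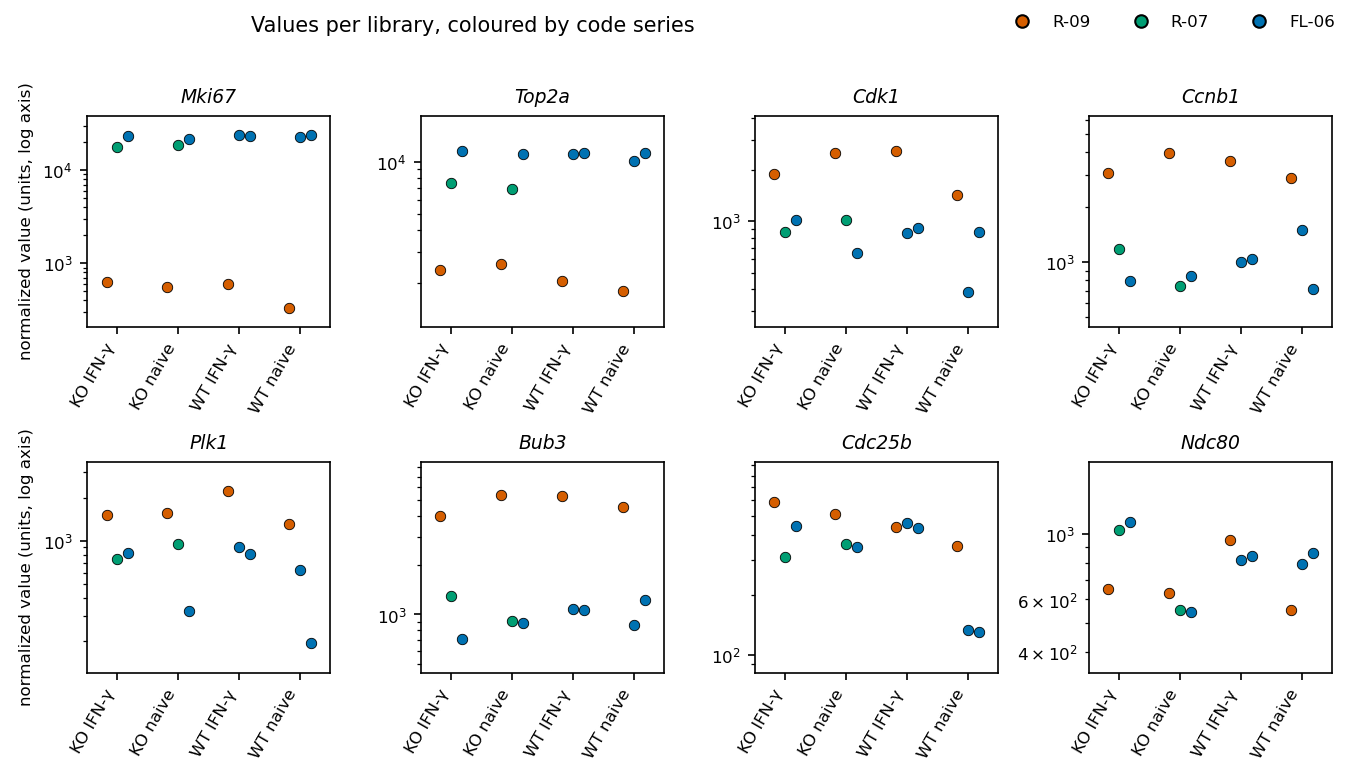
Normalized value per library (log axis, scaled per gene) of 8 of the genes, with KO IFN-γ, KO naive, WT IFN-γ and WT naive from left to right, coloured by code series. The R-09 points sit below all others for *Mki67* (332 to 630.3 units) and *Top2a* (1778 to 2551 units) and above all others for *Cdk1*, *Ccnb1*, *Plk1* and *Bub3* in every group, while *Cdc25b* and *Ndc80* overlap between series.

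The direction of the difference between R-09 and FL-06 went with gene length. Length here is the longest coding sequence of a gene in the GENCODE M21 annotation. Across the 44 genes, Spearman's rho between coding length and the log2 difference was -0.86, and across the 10506 tested genes with a length it was -0.52. These are descriptions over genes that share the same libraries. With annotated transcript length in place of coding length, rho was -0.74 over the 44 genes and -0.56 over the tested genes. The 19 genes lower in R-09 had coding lengths of 1.389 (*Nuf2*) to 9.531 kb (*Mki67*) with a median of 3.363 kb. The 16 higher genes ran from 0.402 (*Cenpa*) to 1.884 kb (*Racgap1*) with a median of 1.222 kb, and the 9 that did not pass the test from 1.728 (*Cdc25b*) to 3.177 kb (*Bub1*). The chromosome-structure genes, all lower in R-09, are 3.012 to 9.531 kb long and the entry genes 0.891 to 1.728 kb, while the kinetochore genes run from 0.402 (*Cenpa*) to 8.991 kb (*Cenpf*).

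In all 5 length classes, the median difference of the members had the same sign as that of all genes of like length. Under 1 kb, all 6 members were called higher in R-09 (median log2 difference 1.38), and the 3327 tested genes of that length had a median of 1.16. From 1 to 2 kb, 10 of 15 members were higher and *Nuf2* was lower (median 0.96, beside 0.38 over 4026 genes). From 2 to 3 kb, 5 of 9 were lower (median -0.55, and -0.55 over 1681 genes). From 3 to 4 kb, 7 of 8 were lower (median -1.30, beside -1.33 over 719 genes), and at 4 kb or more all 6 were lower (median -3.08, beside -2.75 over 753 genes). CHR letters were common in both directions, and stood in 11 of 13 genes higher in R-09 and in 15 of 16 lower ones that had a window.

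**Figure D3:**
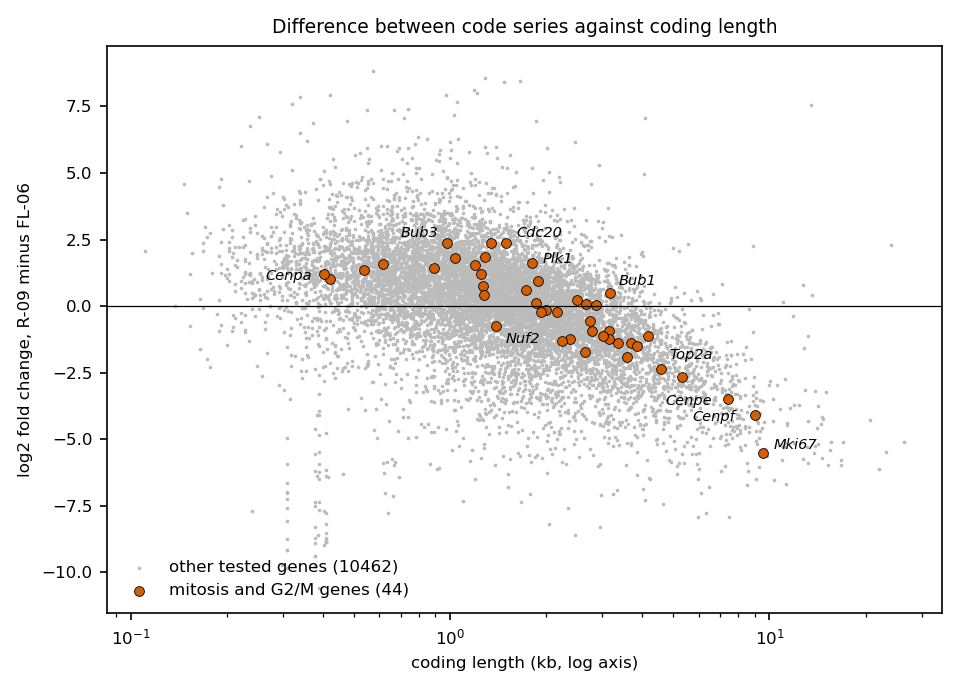
Log2 difference between R-09 and FL-06 (vertical axis) against coding length in kb (log axis) for the 44 genes (orange) and 10462 other tested genes (grey). The orange points fall from above 0 at short lengths (*Cenpa*, *Bub3*, *Cdc20*) to -5.50 for *Mki67*, within the spread of the grey points (Spearman's rho -0.86 for the 44 and -0.52 for all tested genes).

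Summed levels of markers of other cells also separated the series, and their part in the results for the 44 genes was not tested. The 7 early myeloid progenitor markers summed to 36109 to 51440 units in R-09, against 4893 to 5434 units in R-07 and 4593 to 6982 units in FL-06. The 8 neutrophil markers summed to 65199 to 171362 units in R-09, 5461 to 8321 units in R-07 and 4339 to 9250 units in FL-06. The 7 megakaryocyte markers summed to 27217 to 29703 units in R-09, 11032 to 11847 units in R-07 and 9055 to 12179 units in FL-06. The 8 B and plasma cell markers summed to 1247 to 1459 units in R-09, 283 to 321 units in R-07 and 68.5 to 309.7 units in FL-06. Of 7 T and NK cell markers 6 were in the table, with sums of 3268 to 3833 units in R-09, 149.98 to 273 units in R-07 and 33.6 to 346 units in FL-06. The 8 monocyte and macrophage markers summed to 2637 to 5902 units in R-09, 257 to 405 units in R-07 and 126 to 303 units in FL-06. All of these lists lay higher in R-09 than in both other series. Of the T and NK cell markers, *Cd3e* and *Ncr1* were at 0 in every library, *Cd3g* in every R-07 and FL-06 library and *Cd3d* in every R-07 library, and neither *Cd3d* nor *Cd3g* was at 0 throughout R-09. The 10 erythroid markers overlapped (18391 to 36947 units in R-09, 21846 to 23633 in R-07 and 16473 to 20227 in FL-06). So did the 6 mast cell and basophil markers between R-09 and FL-06 (289 to 1147 units in R-09, 31.7 to 82.1 in R-07 and 0 to 335 in FL-06). Between the treatment and genotype groups, every one of these lists had overlapping sums. Every group held R-09 and FL-06 libraries, so for the lists wholly higher in R-09 this overlap was fixed in advance. It cannot show whether the groups differed in these cells.

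IFN-γ left the 44 genes without a call in KO HSCs. No member passed the test at an adjusted p of 0.05 (limma, 0% of all tested genes did), and 2 of 44 had an unadjusted p below 0.05, beside 2.94% of all genes. The median log2 fold change was 0.03, beside 0.01 over all genes, and 25 of 44 members lay above 0, beside 51.0% of all genes. Group values are given for replicates 1, 2 and 3. Every group held both R-09 and FL-06 libraries, so groups had to overlap for any gene without overlap between those series. *Ndc80*, the kinetochore gene with the smallest p, had 1097, 651 and 1031 units in KO IFN-γ libraries, against 630.2, 553 and 543 units in KO naive libraries (log2 fold change 0.65, SE 0.25, adjusted p = 0.9998). It was the 1 member whose treated values all exceeded its naive values, as did 1.22% of all tested genes, and 0 had all treated values below (0.971% of tested genes did). *Nusap1* had 627, 1003 and 577 units in KO IFN-γ libraries, against 1323, 648 and 1039 units in KO naive libraries (log2 fold change -0.43, SE 0.19, adjusted p = 0.9998), with overlapping groups. *Bub1b*, next by p, had 4234, 1828 and 1955 units in KO IFN-γ libraries, against 1561, 2120.2 and 2987 units in KO naive libraries (log2 fold change 0.20, adjusted p = 0.9998). The proliferation marker *Mki67* had 23047, 630.3 and 17574 units in KO IFN-γ libraries, against 557, 18518 and 21485 units in KO naive libraries, which divide by code series and not by treatment. Its log2 fold change in KO was 0.07 (95% interval -0.31 to 0.45), that of *Top2a* 0.02 (-0.22 to 0.26) and that of *Cdk1* -0.000442 (-0.63 to 0.63).

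In WT HSCs no member passed the test either (limma, 0.00925% of all tested genes did, which is 1 gene). The estimates leaned upward: 34 of 44 members lay above 0, beside 62.2% of all genes, with a median log2 fold change of 0.22 beside 0.11. Of the 44, 10 had an unadjusted p below 0.05, all higher after IFN-γ, which is 22.7% beside 7.43% of all tested genes. They were *Cdc25b*, *Cdc25c*, *Racgap1*, *Tpx2*, *Plk1*, *Cdc20*, *Cdk1*, *Bub1*, *Cenpf* and *Hmmr*, with adjusted p-values of 0.5742 to 0.6299. WT IFN-γ 1 and 2, the most alike pair, had estimated depths of 52.1 and 45.4 M reads. WT naive 1 and 2 had 10.1 and 0.495 M reads, so in FL-06 treatment of WT ran together with depth. *Cdc25b* had 461, 437 and 441 units in WT IFN-γ libraries, against 134, 130.4 and 354 units in WT naive libraries (log2 fold change 1.28, SE 0.36, adjusted p = 0.5742). *Cdc25c* had 149.7, 166 and 281 units in WT IFN-γ libraries, against 14.1, 0 and 138 units in WT naive libraries (log2 fold change 3.91, SE 1.14, adjusted p = 0.5879). Groups did not overlap for these phosphatase genes, nor for *Bub1* and *Ttk*, so 4 of 44 members had all treated values above all naive values, as did 2.1% of tested genes. The value of 0 for *Cdc25c* is in WT naive 2, where 3 reads would be worth 102 units, and its log2 fold change was 2.61 with a pseudocount of 10 and 2.35 without that library. *Racgap1* had 1043, 958 and 2211 units in WT IFN-γ libraries, against 914, 336 and 1039 units in WT naive libraries (log2 fold change 0.93, SE 0.30, adjusted p = 0.6199), with overlap between the groups. *Plk1* had 901, 803 and 2229.5 units in WT IFN-γ libraries, against 624, 192 and 1314 units in WT naive libraries (log2 fold change 1.12, adjusted p = 0.6299). The lowest naive values of *Plk1* and *Racgap1* were both in WT naive 2.

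Among the best-known members in WT, *Mki67* and *Top2a* had narrower intervals than *Cdk1*, *Ccnb1* and *Bub3*. *Mki67* had 23874, 23139 and 599 units in WT IFN-γ libraries, against 22650.5, 24051 and 332 units in WT naive libraries (log2 fold change 0.29, 95% interval -0.09 to 0.67). *Top2a* had 11077, 11151 and 2048 units in WT IFN-γ libraries, against 10080.4, 11216 and 1778 units in WT naive libraries (log2 fold change 0.11, 95% interval -0.13 to 0.35). In FL-06 both genes were at nearly the same level with and without IFN-γ. *Cdk1* had 851, 909 and 2586 units in WT IFN-γ libraries, against 387, 861 and 1427 units in WT naive libraries (log2 fold change 0.69, 95% interval 0.06 to 1.32). *Ccnb1* had 999.6, 1043 and 3594 units in WT IFN-γ libraries, against 1493, 710.03 and 2893 units in WT naive libraries (log2 fold change 0.10, 95% interval -0.52 to 0.71). *Bub3* had 1081, 1069 and 5336 units in WT IFN-γ libraries, against 859, 1221 and 4584 units in WT naive libraries (log2 fold change 0.12, 95% interval -0.33 to 0.57). A missed threshold does not show that these genes were unchanged. The number of members with an unadjusted p below 0.05 in WT was 2 without the code series in the model, 2 without the R-09 libraries, and 4 (without WT IFN-γ 1) to 12 (without WT naive 2) when single libraries were left out.

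**Figure D4:**
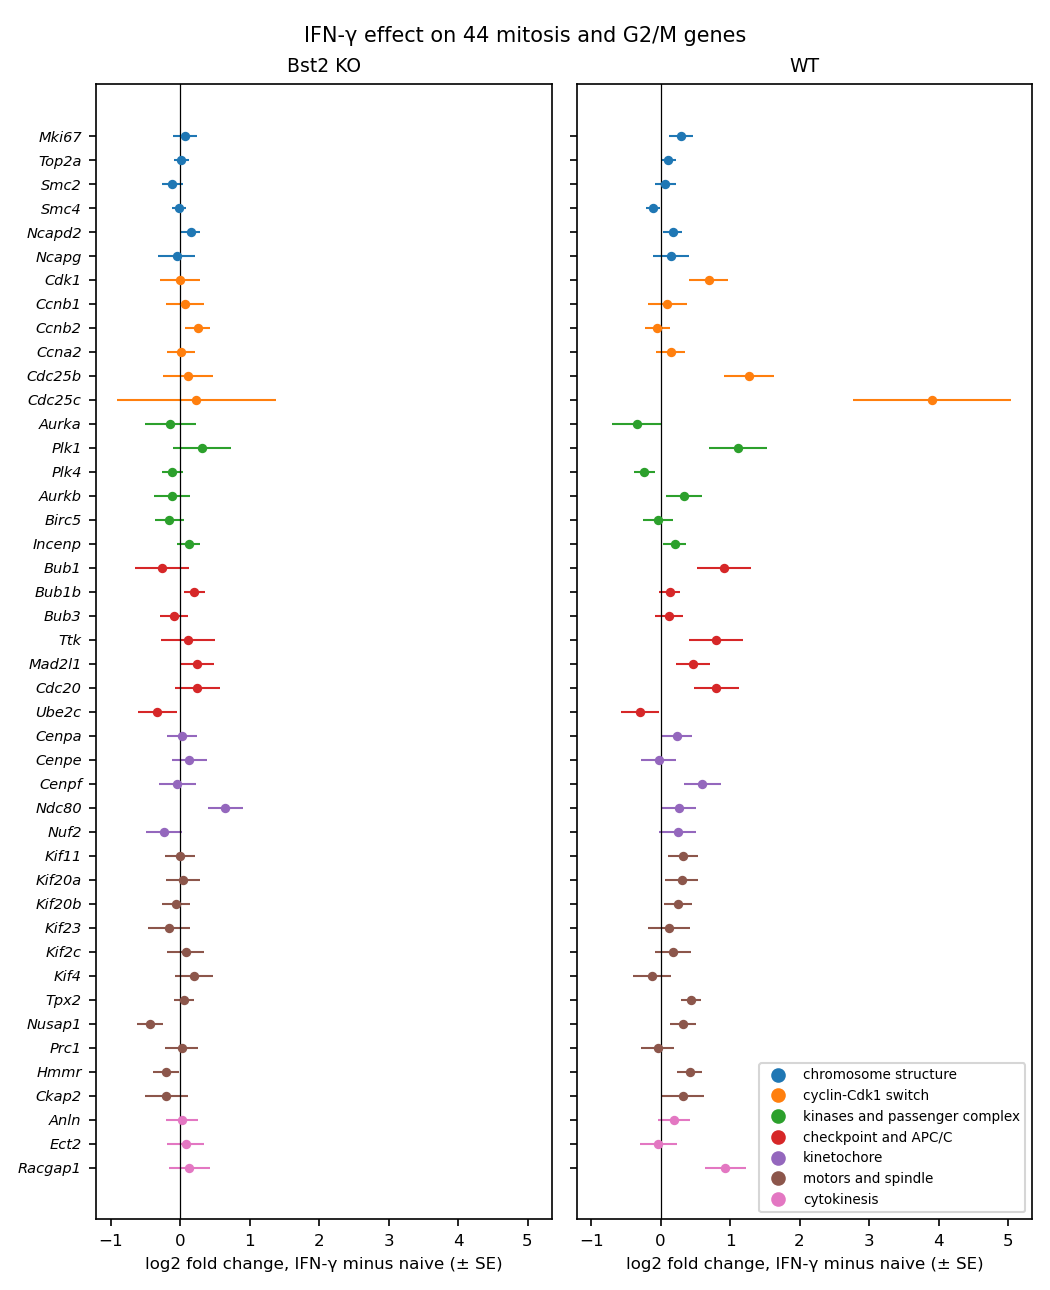
Log2 fold change, IFN-γ minus naive, with its SE (bars) for each of the 44 genes in *Bst2* KO (left) and WT (right) HSCs, coloured by role. Points in KO lie between -0.43 and 0.65, and points in WT between -0.34 and 1.28 apart from *Cdc25c* at 3.91 with an SE of 1.14.

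The difference between the IFN-γ effects of KO and WT was tested directly and no member passed (limma, 0% of tested genes did). The median difference was -0.21, beside -0.11 over all genes, and 4 members had an unadjusted p below 0.05, all with a lower estimate in KO than in WT (3.39% of all tested genes had such a p). With single libraries left out, that count was 1 (without KO naive 1, KO naive 3 or WT IFN-γ 2) to 9 (without WT naive 2), and it was 0 in a model of group means alone. They were *Nusap1* (log2 difference -0.75, SE 0.27, adjusted p = 0.9331), *Hmmr* (-0.62, SE 0.26), *Cdc25b* (-1.17, SE 0.51) and *Cdc25c* (-3.67, SE 1.61). In WT, *Nusap1* had 1002, 998 and 1208 units in WT IFN-γ libraries, against 674, 869 and 1050.1 units in WT naive libraries, where the groups overlapped. Averaged over both genotypes, the IFN-γ effect had a median of 0.11 (0.07 over all genes), 0 members passed (0.0647% of tested genes did) and 7 had an unadjusted p below 0.05, all higher, which is 15.9% beside 6.06% of all genes. That count was 2 (without KO IFN-γ 1, KO naive 3 or WT IFN-γ 1) to 12 (without WT naive 2) when single libraries were left out, 2 without the R-09 libraries and 0 in a model of group means alone. The smallest were *Cdc25b* (log2 fold change 0.69, SE 0.26, adjusted p = 0.7951), *Ndc80* (0.46, SE 0.18) and *Cdc25c* (2.07, SE 0.81).

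Between genotypes, naive KO HSCs were compared with naive WT HSCs. No member passed (limma, 0% of tested genes did), the median log2 difference was 0.13 beside 0.07 over all genes, and 30 of 44 lay above 0, beside 57.9% of all genes. Unadjusted p-values below 0.05 were found for 5 members, 4 higher and 1 lower in KO, beside 6.49% of all tested genes. The count was 3 (without KO IFN-γ 3, KO naive 2, WT IFN-γ 1 or WT IFN-γ 2) to 8 (without WT naive 1) when single libraries were left out. *Cdc25b* had 516, 362 and 350.5 units in KO naive libraries, against 134, 130.4 and 354 units in WT naive libraries (log2 difference 1.19, SE 0.39, adjusted p = 0.7074). *Hmmr* had 1055, 1585 and 2381 units in KO naive libraries, against 1838, 1623 and 542 units in WT naive libraries (log2 difference 0.55, SE 0.20, adjusted p = 0.7074). *Cdc25c* had 294, 81.5 and 106 units in KO naive libraries, against 14.1, 0 and 138 units in WT naive libraries (log2 difference 3.31, SE 1.22, adjusted p = 0.7074). The KO and WT values of all 3 genes overlapped. For *Cdc25c* the 0 is in the shallow library WT naive 2, and its log2 difference was 1.87 without that library and 4.79 without WT naive 3. *Bub1* was the 1 member whose naive KO values all lay above its naive WT values (786, 812 and 499 units in KO, against 498, 159 and 428 units in WT), as did 1.41% of tested genes, and its unadjusted p was 0.05361. The naive WT libraries serve as controls both here and for the IFN-γ effect in WT, so these comparisons are not independent. *Cdc25b* and *Cdc25c* were low in WT naive 1 and 2.

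After IFN-γ, 10 of 44 members had estimates above 0 in KO relative to WT, where 44.4% of all tested genes did, and none passed (limma, 0% of tested genes did). The median log2 difference was -0.15, beside -0.04 over all genes, and 0 members had an unadjusted p below 0.05, beside 2.09% of all tested genes. *Nusap1* had 627, 1003 and 577 units in KO IFN-γ libraries, against 1002, 998 and 1208 units in WT IFN-γ libraries (log2 difference -0.43, SE 0.20, adjusted p = 1). *Aurkb* had 513, 2034 and 744 units in KO IFN-γ libraries, against 766, 832 and 2504 units in WT IFN-γ libraries (log2 difference -0.57, SE 0.28). *Bub3* had 704, 4006 and 1296 units in KO IFN-γ libraries, against 1081, 1069 and 5336 units in WT IFN-γ libraries (log2 difference -0.38, SE 0.22). The groups overlapped for every one of the 44: 0 had all KO values above all WT values (1.44% of tested genes did) and 0 had all below (1.29%). For the 12 members wholly higher and the 17 wholly lower in R-09 than in FL-06, this overlap was fixed in advance. Each group held libraries of both series, so overlap there carries no information on genotype. Over the 44 genes Spearman's rho between coding length and this difference was 0.55, beside 0.20 over all tested genes, whereas rho lay between -0.07 and 0.23 for the other treatment and genotype comparisons of 2 groups.

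Within single code series the IFN-γ difference of the 44 genes was centred near 0 in 4 of 5 cases. In KO its median was -0.05 in R-09, 0.05 in R-07 and 0.08 in FL-06, with 17 of the 44 members above 0 in R-09 (47.6% of all tested genes were), 25 in R-07 (50.3%) and 25 in FL-06 (50.8%). In WT it was 0.43 in R-09, with 41 of 44 members above 0 where 51.5% of all tested genes were, and 0.08 in FL-06 with 30 of 44 above 0, where the median of all tested genes was 0.13 and 61.6% were above 0. Without WT naive 2 the FL-06 median in WT was 0.13, beside 0.04 over all tested genes. In that setting 30 of 44 members lay above 0, beside 54.0% of all tested genes. The R-09 value in WT rests on 1 library against 1, and WT naive 3 had the lowest mean log2 level of the 44 genes in R-09. That library also enters the naive genotype difference, which had a median of 0.35 in R-09 (35 of 44 above 0, beside 51.4% of all tested genes) and -0.02 in FL-06 (22 of 44, beside 57.2%). After IFN-γ the genotype difference had a median of -0.27 in R-09 (12 of 44 above 0, beside 46.4%) and -0.07 in FL-06 (17 of 44, beside 47.05%). *Mki67* differed by 0.85 in WT R-09 and by 0.01 in WT FL-06. *Ndc80* differed in KO by 0.05 in R-09, 0.90 in R-07 and 1.01 in FL-06. Across the 5 combinations of genotype and series, *Cdc20*, *Ndc80* and *Racgap1* were above 0 in all 5, no member was below 0 in all, and *Plk4* and *Smc4* were above 0 in 1. Some of these differences were close to 0: 0.0023 for *Racgap1* (KO, R-07), 0.0070 for *Ndc80* (WT, FL-06) and 0.030 for *Cdc20* (KO, R-09). All combinations except WT in FL-06 rest on 1 library against 1. The share of all tested genes above 0 in all 5 was not computed, so these signs show no consistent effect.

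**Figure D5:**
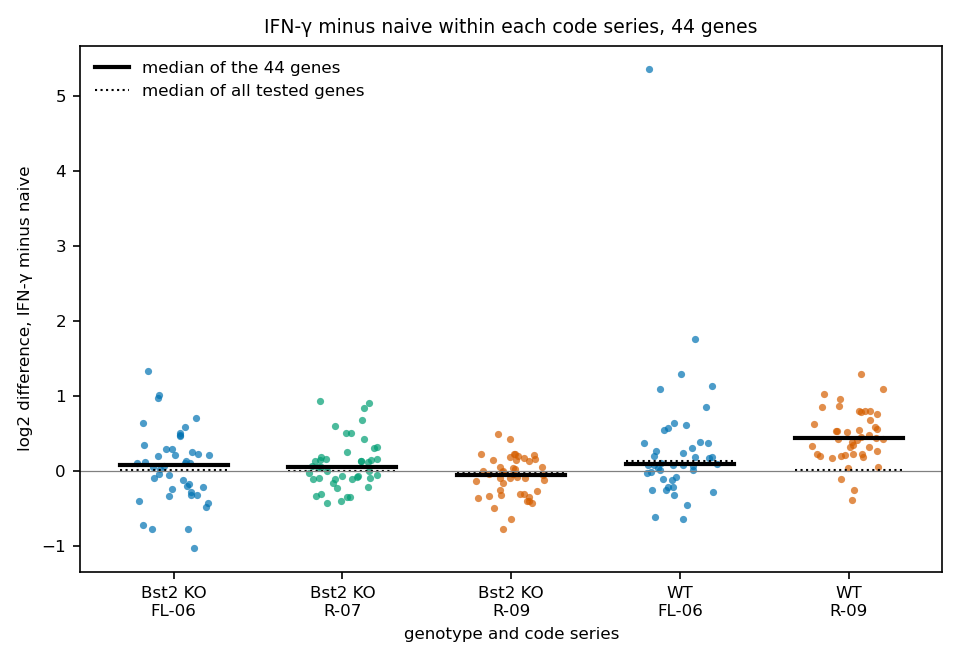
Log2 difference, IFN-γ minus naive, of each of the 44 genes (points) within each genotype and code series, with the median of the 44 (solid line) and of all tested genes (dotted line). The solid line lies between -0.05 and 0.08 except for WT in R-09, where it is 0.43 and the dotted line 0.02.

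Other genes of mitosis, listed with earlier results known, also had no calls for treatment or genotype. Of 115 listed genes 112 were tested, and 0 passed in any treatment or genotype comparison. In R-09, 38 of the 112 were higher and 42 lower, where 35.6% of all tested genes were higher and 32.3% lower. In WT after IFN-γ 8 of the 112 had an unadjusted p below 0.05, where 7.43% of all tested genes did, and in KO 1 did, where 2.94% of all tested genes did. The share in WT is near that of all tested genes. *Pbk*, a mitotic kinase, had the smallest in WT (log2 fold change 1.06, unadjusted p = 0.004024), and *Mybl2*, which encodes B-Myb, the smallest in KO (0.57, unadjusted p = 0.02301). *Foxm1* had 0.46 in KO (unadjusted p = 0.119). Of 14 further condensin and cohesin genes, 2 were higher and 11 lower in R-09, among them the cohesin subunits *Rad21* (log2 difference -3.99) and *Smc1a* (-2.68). Other kinetochore genes were 12 higher and 8 lower of 31, and other APC/C and mitotic exit genes 8 and 3 of 17. Other spindle and motor genes were 5 higher and 13 lower of 26, and mitotic regulators 11 and 7 of 24. Each of these lists stands beside 35.6% higher and 32.3% lower over all tested genes. Of the small Cdk-binding proteins, *Cks1b* was 2.94 and *Cks2* 2.02 on the log2 scale in R-09 relative to FL-06.

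The preceding cell cycle step was also without calls for treatment or genotype. Of 40 G1/S genes, 0 passed in any treatment or genotype comparison. In R-09, 20 were higher (35.6% of all tested genes were) and 10 lower (32.3% were). After IFN-γ, 7 of the 40 had an unadjusted p below 0.05 in WT (limma, 7.43% of all tested genes did). In KO 4 did, beside 2.94% of all tested genes. *Mcm3*, a subunit of the replicative helicase, had a log2 fold change of 0.37 in WT (unadjusted p = 0.001874) and 0.29 in KO (unadjusted p = 0.00876). *E2f1*, an activator of S-phase genes, had 0.75 in WT (unadjusted p = 0.003455). The smallest p-values in KO were those of *Mcm2* (0.32, unadjusted p = 0.003251) and *Gins4* (-0.61, unadjusted p = 0.008219). None of these genes passed adjustment over all genes. Of 6 CDK inhibitors, 0 passed in the treatment and genotype comparisons. *Cdkn1b*, which encodes p27, had -0.33 in KO and -0.75 in WT after IFN-γ (limma, unadjusted p = 0.4129 and 0.07794). In R-09 relative to FL-06, 3 of the 6 were higher and 1 was lower (median log2 difference 0.96). Over all tested genes 35.6% were higher and 32.3% lower. The lower one was *Cdkn1b* (-4.94), and *Cdkn2d* (2.59) and *Cdkn1c* (1.23) were among the higher ones.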

How the data were processed

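Bulk RNA-seq of sorted HSCs was available for 12 libraries in 4 groups of 3. The authors deposited a table of normalized counts, a never-negative signal, and a second table that holds the same values. Per the submitters' processing notes, STAR and DESeq were used, and no version or role is listed. No source used here names the genome build, the annotation or the strand setting, so values of overlapping or near-identical genes are uncertain. Library preparation used a stranded total RNA kit, per the labels.

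Of 24972 rows, 26 with names turned into dates were left out. Values were taken as log2(value + 1). The added 1 can understate changes between low values, and can overstate changes that involve a 0 in the shallow library WT naive 2. The log2 fold change of *Cdc25c* in WT after IFN-γ was 3.91 this way and 2.61 with a pseudocount of 10. Genes with at least 100 units in at least 3 libraries (10816) were fitted by limma-trend (limma 3.58.1, R 4.3.3), with 6 residual and 5.02 prior degrees of freedom. The model held all 12 libraries, 4 group means and the code series, so that both series present in all groups contribute. Benjamini-Hochberg adjustment covered all tested genes, with a threshold of 0.05. The fit was tested on data simulated with independent noise of its own residual spread. Such data cannot show problems from the shallow library or from libraries that are unusually alike. The 44 genes and all lists were chosen with earlier results of these data known. By the rule for named genes, values are given for every member past the threshold, for *Mki67*, *Top2a*, *Cdk1*, *Ccnb1*, *Plk1* and *Bub3*, for the 2 of highest mean level in each role and for the 3 of smallest p per comparison. Lists of other genes are described by counts and medians without a list test. Lengths were taken from GENCODE M21 (available for 97.1% of tested genes) and promoter windows from RefSeq. Depth was estimated from steps of the values and is rough. Alternatives were no code series, replicate numbers as a block, a pseudocount of 10, no filter, quantile normalization, array weights, each library left out, and, chosen after seeing the data, no R-09 libraries. Replicate numbers shared between groups did not pair the libraries and were not used.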

Additional observations from a re-analysis of the deposited data

How the results depend on the processing

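Under each alternative run, 0 of the 44 genes passed in the 6 treatment and genotype comparisons, and of the values recomputed (counts, medians, the members called for R-09 against FL-06 and the 3 members of smallest p in each other comparison) none changed sign except the members' median for R-09 against FL-06, which was -0.05 and became 0.00789 without KO naive 1 and 0.00900 without KO naive 3. Counts over all genes moved. In WT after IFN-γ 1 gene passed, and 0 did without the code series, 0 with a replicate block, 5 with a pseudocount of 10, 2 without a filter, 4 after quantile normalization, 9 with array weights and 2 without R-09. For the effect averaged over genotypes 7 passed, and 0 did without the code series, 0 with a replicate block, 13 with a pseudocount of 10, 29 after quantile normalization, 42 with array weights and 21 without R-09. In KO after IFN-γ 0 passed, but 7 after quantile normalization and 7 with array weights. Without R-09, 2 genes passed between genotypes after IFN-γ and 1 for the difference of effects, and the members' medians were 0.0845 for IFN-γ in WT, 0.0184 for naive KO against WT and -0.00528 for the difference of effects. The cause was not tested. With single libraries left out, genes called were 0 to 13 (IFN-γ in WT, highest without WT naive 3), 0 to 7 (KO, without WT naive 2), 0 to 2 (naive genotypes), 0 to 1 (treated genotypes), 0 to 2 (difference), 3 to 22 (average, highest without WT naive 2) and 6448 to 8225 (R-09 against FL-06, with 31 to 36 members). Member medians were 0.15 to 0.302, 0.000407 to 0.0759, 0.0620 to 0.168, -0.152 to -0.0609, -0.285 to -0.125, 0.0575 to 0.146 and -0.147 to 0.00900 in the same order. Calls lost in some of these fits were *Ect2* (10 of 12), *Cdc25c* (8), *Nusap1* (6) and *Nuf2* (1). With a replicate block in place of the code series the 44 genes had 0 calls. Same-numbered libraries deviated together in some pairs and apart in others (correlations -0.88 to 0.825 over 18 pairs, with 3 of 12 libraries closest to their own number), so the numbers were not taken as pairs. Depth limits low values, above all in WT naive 2.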
